A study of Mus musculus with 6 samples.

Results

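The potassium channel genes described here are all genes on the arrays whose symbol begins with Kcn, other than Kcnq1, Kcne1, Kcnj10 and Kcnj16, which serve potassium transport in the stria vascularis. A probe set counted only if the platform annotation gave it a single gene symbol. The rule gave 87 probe sets of 59 genes, out of 22626 probe sets and 12393 named genes in all. Each gene was represented by its brightest probe set, the one with the highest mean over the 6 arrays. Signals were measured in cochleae from male mice of the DBA/2J strain, inbred animals known for early hearing loss, at 7 weeks (3 samples) and 36 weeks (3 samples), with 1 single-colour Affymetrix array per sample. The study compared the ages to find genes associated with age-related hearing loss. The labels name no treatment or engineered allele, all animals shared strain, sex and housing, and the labels do not say how many mice or ears made up a sample. P-values therefore measure only the spread between these samples, which may be technical.

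Potassium channels are membrane pores that let potassium leave or enter a cell and so set its resting voltage and shape its spikes. Voltage-gated channels open on depolarisation, inward rectifiers and two-pore-domain channels hold the resting potential, and calcium-activated channels open when calcium inside the cell rises. In the cochlea, potassium channels carry the current out of hair cells, time the spikes of spiral ganglion neurons and take part in recycling potassium to the endolymph.

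Of the 59 genes, 27 were bright enough to be tested, that is, had a mean signal above 593.6, the 40th percentile of all probe sets. Among these 27, 9 rose at 36 weeks, 1 fell and 17 did not pass the threshold, a Benjamini-Hochberg adjusted p under 0.05 in limma over all 13575 tested probe sets. The genes that rose were Kcnd2, Kcnn4, Kcnmb4, Kcnd1, Kcnh3, Kcnma1, Kcnh1, Kcnc1 and Kcnj3, and the gene that fell was Kcna1. Over all 8555 tested genes 35.1% passed in either direction, 17.5% as higher and 17.6% as lower. The share of potassium channel genes that passed in either direction (37.0%) was therefore near that background. The division by direction was 9 to 1 among these genes and 1493 to 1509 among all tested genes. Kcnd2 and Kcnd1, with 7-week means of 460.9 and 586.0, passed the filter only through their 36-week signal. Their direction is therefore no support for this division. Centring each array on its median gave 7 higher and 3 lower, and quantile normalization gave 7 higher and 0 lower. Without replicate 2 of 7 weeks the numbers were 5 and 0. The shares over all tested genes under these settings were not computed, so these counts have no background to be set against. The median log2 difference, 36 weeks minus 7 weeks throughout, was 0.38 over the 27 genes and 0.02 over all tested genes. Kcnd2 and Kcnd1 are among the 27, so the limit of the filter holds for this median too. Differences are on the scale of log2(signal + 50), where the offset shrinks the change of dim genes, and each carries its standard error (SE) with n = 3 arrays per age.

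Markers of other cell types moved on the same 6 arrays, and their part in the results below was not tested. All 10 tested genes of the cerebellar and brain list rose (of 12 measured), with a median log2 difference of 1.97 and summed signals of 22309 to 22525 at 7 weeks and 77300 to 83000 at 36 weeks. All 14 tested granulocyte genes rose with a median of 3.84, and their summed signals were 52229 to 56926 at 7 weeks and 744176 to 793482 at 36 weeks. All 6 tested airway mucosa genes (of 8 measured) rose with a median of 4.35, with sums of 69268 to 70926 and 448005 to 484215. The 5 tested anterior pituitary genes (of 7 measured) rose with a median of 3.70, with sums of 6237 to 7169 and 76839 to 82257. Of 14 peripheral neuron genes 9 rose and 2 fell (median 0.92, sums of 124630 to 130447 and 168397 to 178349). Markers of the cochlea itself had signals listed at both ages. No detection calls were used, so the presence of the dim ones was not tested. Among the dim ones were Bsnd, with a mean of 199.8 at 36 weeks, and Slc26a5, with means of 253.7 and 331.6. All 9 tested spiral ligament genes fell (median -1.97), as did 6 of 8 tested stria vascularis genes (median -1.46) and 3 of 7 tested hair cell genes (median -0.08, of 13 measured). Of 24 tested skeletal muscle genes 23 fell (median -1.68), with sums of 385846 to 404805 at 7 weeks and 131434 to 137619 at 36 weeks. Of 8 tested Schwann cell and myelin genes (of 10 measured) 7 fell (median -1.14, sums of 166949 to 173991 and 88619 to 97244). Some of these markers passed the filter only through the age where they were high, so their direction is no support. Of those that rose, Cbln3, Grin2c, Ntrk3, Ctsg, Agr2, Reg3g and Cga had 7-week means under the filter. Of those that fell, Tbx18, Col9a3, Ush1c, Gata3, Pgam2, Tnnt1, Tnni1, Myh7 and Sln had 36-week means under it. In whole tissue, fewer cells of a type and less RNA per cell cannot be told apart.

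The promoters of the 3 genes with the largest rises among the tested genes are shown because these genes rose together but differ in the sequence before their starts. Each is the 250 bases upstream of the RefSeq start on build GRCm38.p6, printed 5′ to 3′ along the gene's strand. Capitals mark the GC box GGGCGG or its reverse complement CCGCCC.
Kcnd2, chr6:21215096-21215345, plus strand: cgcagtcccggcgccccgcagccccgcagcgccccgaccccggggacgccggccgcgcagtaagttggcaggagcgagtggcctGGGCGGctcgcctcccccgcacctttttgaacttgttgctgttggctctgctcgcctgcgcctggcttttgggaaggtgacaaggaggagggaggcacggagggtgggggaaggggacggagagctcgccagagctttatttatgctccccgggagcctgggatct
Kcnmb4, chr10:116473524-116473773, minus strand: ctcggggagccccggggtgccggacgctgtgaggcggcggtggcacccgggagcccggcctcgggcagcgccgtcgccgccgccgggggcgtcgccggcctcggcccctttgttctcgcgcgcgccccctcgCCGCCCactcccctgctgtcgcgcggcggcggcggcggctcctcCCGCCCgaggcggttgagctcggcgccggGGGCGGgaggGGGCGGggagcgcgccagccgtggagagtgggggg
Kcnn4, chr7:24370013-24370262, plus strand: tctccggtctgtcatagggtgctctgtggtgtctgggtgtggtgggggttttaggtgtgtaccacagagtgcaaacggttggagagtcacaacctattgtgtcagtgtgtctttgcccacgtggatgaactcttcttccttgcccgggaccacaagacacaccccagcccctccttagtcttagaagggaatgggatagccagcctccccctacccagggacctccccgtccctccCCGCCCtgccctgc

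The window of Kcnmb4 held 43 CpG dinucleotides and 4 GC boxes, that of Kcnd2 held 22 and 1, and that of Kcnn4 held 6 and 1. The median over all 32851 promoter windows of the table was 6 CpG, and 32.7% of them held a GC box on either strand. Windows were found for 49 of the 59 genes (67 windows), with a median of 8 CpG and 44.8% holding the box. Of the 10 genes past the threshold 7 had a single window. Those of Kcnma1 and Kcnc1 held 31 and 30 CpG, that of Kcnh1 held 17, and that of Kcnj3 held 7 with no GC box. Among the genes that rose, the windows thus ran from the median CpG count of all windows to far above it.

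**Figure D1:**
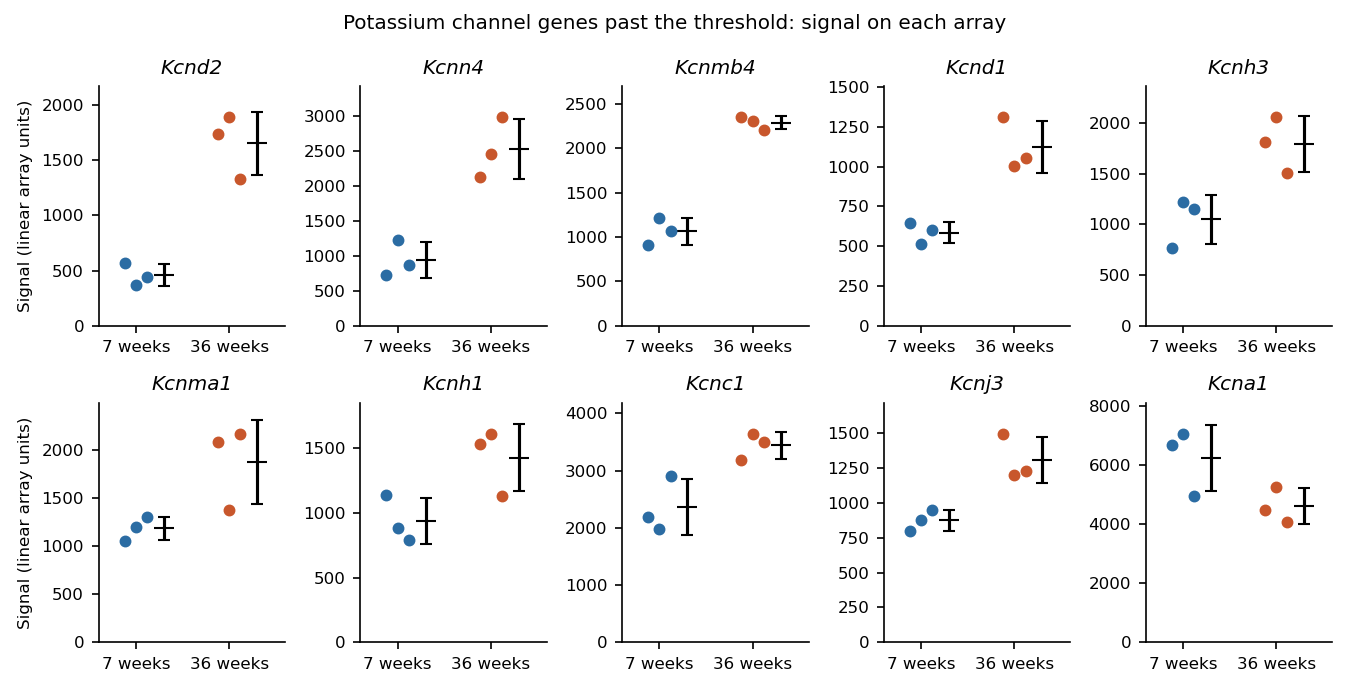
Signal on each array, in linear array units from 0, of the 10 potassium channel genes past the threshold. Points are single arrays at 7 weeks (blue) and 36 weeks (orange), and bars are the mean ± SD of 3 arrays. The 2 ages overlap for Kcnh1 and Kcna1 and are separate for the other genes.

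The voltage-gated pore subunits of the Kv1, Kv3 and Kv4 families had 12 genes, of which 6 were tested, 3 rose and 1 fell. No gene of the Kv2 family was among the members. The rises lay in the Kv4 and Kv3 families. Kv4 channels carry the A-type current, which inactivates quickly and delays spikes, and Kcnd2 and Kcnd1 encode Kv4.2 and Kv4.1. Kcnd2 had signals of 570.1, 370.9 and 441.8 at 7 weeks and 1735.3, 1888.1 and 1330.0 at 36 weeks. Every 36-week array lay far above every 7-week array. Kcnd2 rose 3.58-fold, with a log2 difference of 1.74 ± 0.22 (SE, n = 3) and an adjusted p of 0.000169. Its 7-week mean of 460.9 lay under the filter, so it entered the test only through its 36-week signal; in the fit of all probe sets without a filter its adjusted p was 0.000683. The other tested probe set of Kcnd2 rose by 1.95 ± 0.35 (adjusted p 0.00176, or 0.00436 without a filter). Its 7-week mean of 279.3 was also under the filter, so it too was tested only through its 36-week signal. The remaining probe set lay under the filter with mean signals of 102.6 and 843.0.

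Kcnd1 had signals of 643.8, 511.4 and 602.7 at 7 weeks and 1309.9, 1003.1 and 1056.6 at 36 weeks. The ages did not overlap, and Kcnd1 rose by 0.88 ± 0.21 (adjusted p 0.0077). Its 7-week mean of 586.0 was also under the filter, and without a filter its adjusted p was 0.0176. Cerebellar granule neurons are known for strong Kcnd2 expression, and the brain list rose on the same arrays (median 1.97). The part of this list in the Kcnd2 and Kcnd1 signals was not tested. The third Kv4 gene, Kcnd3, was under the filter, with 98.7, 31.8 and 47.9 at 7 weeks and 463.2, 267.7 and 103.6 at 36 weeks. Dpp6, the membrane partner that speeds Kv4 gating, went from a mean of 2577 ± 222.9 (SD, n = 3) to 4247 ± 1018 and rose by 0.68 ± 0.17 (adjusted p 0.00949).

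Kcnc1 encodes Kv3.1, a rapidly gating channel that lets auditory and cerebellar neurons fire at high rates. Its signals were 2192.9, 1979.1 and 2906.2 at 7 weeks and 3178.7, 3642.6 and 3493.4 at 36 weeks. The highest young array lay close under the lowest old one. Kcnc1 rose by 0.55 ± 0.14 (adjusted p 0.0132, or 0.051 without replicate 2 of 7 weeks). The other Kv3 gene measured, Kcnc4, was dim on every array, with a highest signal of 270.5.

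In the Kv1 family, low-threshold channels of axons and auditory neurons, 1 of 3 tested genes fell and none rose. Kcna1, which encodes Kv1.1, had signals of 6682, 7045 and 4956 at 7 weeks and 4461.7, 5257.9 and 4058.1 at 36 weeks. Replicate 3 of 7 weeks lay inside the 36-week range, so the ages overlapped. Kcna1 fell by 0.43 ± 0.14 on the log2 scale (adjusted p 0.039). The adjusted p was 0.0922 without replicate 1 of 36 weeks, 0.125 without replicate 3 of 36 weeks, 0.115 without replicate 1 of 7 weeks and 0.142 without replicate 2 of 7 weeks. It was also above the threshold with no filter (0.0667), without the intensity trend (0.102) and after quantile normalization (0.0601). On the same arrays the Schwann cell and myelin list was lower (median -1.14). The peripheral neuron and brain lists were higher, with medians of 0.92 and 1.97. The part of these lists in the Kcna1 signal was not tested.

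Kcna2 and Kcna6, which encode Kv1.2 and Kv1.6, did not pass, with log2 differences of 0.15 ± 0.16 and 0.39 ± 0.17. Kcna6 was nevertheless higher on every 36-week array (1154.8, 1093.8 and 1147.5) than on any 7-week array (939.2, 757.3 and 875.4), and it passed without the intensity trend (adjusted p 0.0431). Kcna1 and Kcna6 are next to each other in the RefSeq gene order, and their differences had opposite signs. The 4 untested Kv1 genes, Kcna3, Kcna4, Kcna5 and Kcna7, had mean signals of 215.7 to 581.2. Kcna7, a channel of skeletal muscle, ranged from 121.0 to 1232.3 with the ages overlapping. Of the partners that place Kv1 channels on axons, Cntnap2 and Cntn2 did not pass (-0.15 ± 0.16 and 0.45 ± 0.32).

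Channels of the ether-à-go-go group (EAG, ERG and ELK) were represented by 4 genes, of which 3 were tested and 2 rose. Kcnh3, which encodes an ELK channel of neurons, had signals of 771.2, 1224.7 and 1149.0 at 7 weeks and 1815.9, 2054.6 and 1503.0 at 36 weeks. The ages were separate, and Kcnh3 rose by 0.76 ± 0.20 (adjusted p 0.0126, or 0.0537 without replicate 2 of 36 weeks). Kcnh1, which encodes the founding EAG channel, had 1137.2, 881.6 and 792.3 at 7 weeks and 1533.5, 1608.4 and 1129.9 at 36 weeks. Its ages met at replicate 1 of 7 weeks and replicate 3 of 36 weeks. Kcnh1 rose by 0.58 ± 0.20 (adjusted p 0.0427). The adjusted p of Kcnh1 was above the threshold, at 0.106 to 0.139, without replicate 1 or 2 of 36 weeks or replicate 2 or 3 of 7 weeks. It was 0.0803 after centring on the array median, 0.0684 after quantile normalization, 0.0788 without the filter and 0.0547 without the intensity trend.

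Kcnh2 encodes the ERG channel known from heart repolarisation. Its signals were 2227.9, 2068.9 and 2246.1 at 7 weeks and 1818.0, 1868.9 and 1793.8 at 36 weeks. The ages were separate, in the opposite direction to Kcnh1 and Kcnh3, but the log2 difference of -0.25 ± 0.11 did not pass (adjusted p 0.112). It passed only after centring on the array median, with -0.35 and an adjusted p of 0.0322. Kcnh7 was under the filter, with a mean of 466.4.

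**Figure D2:**
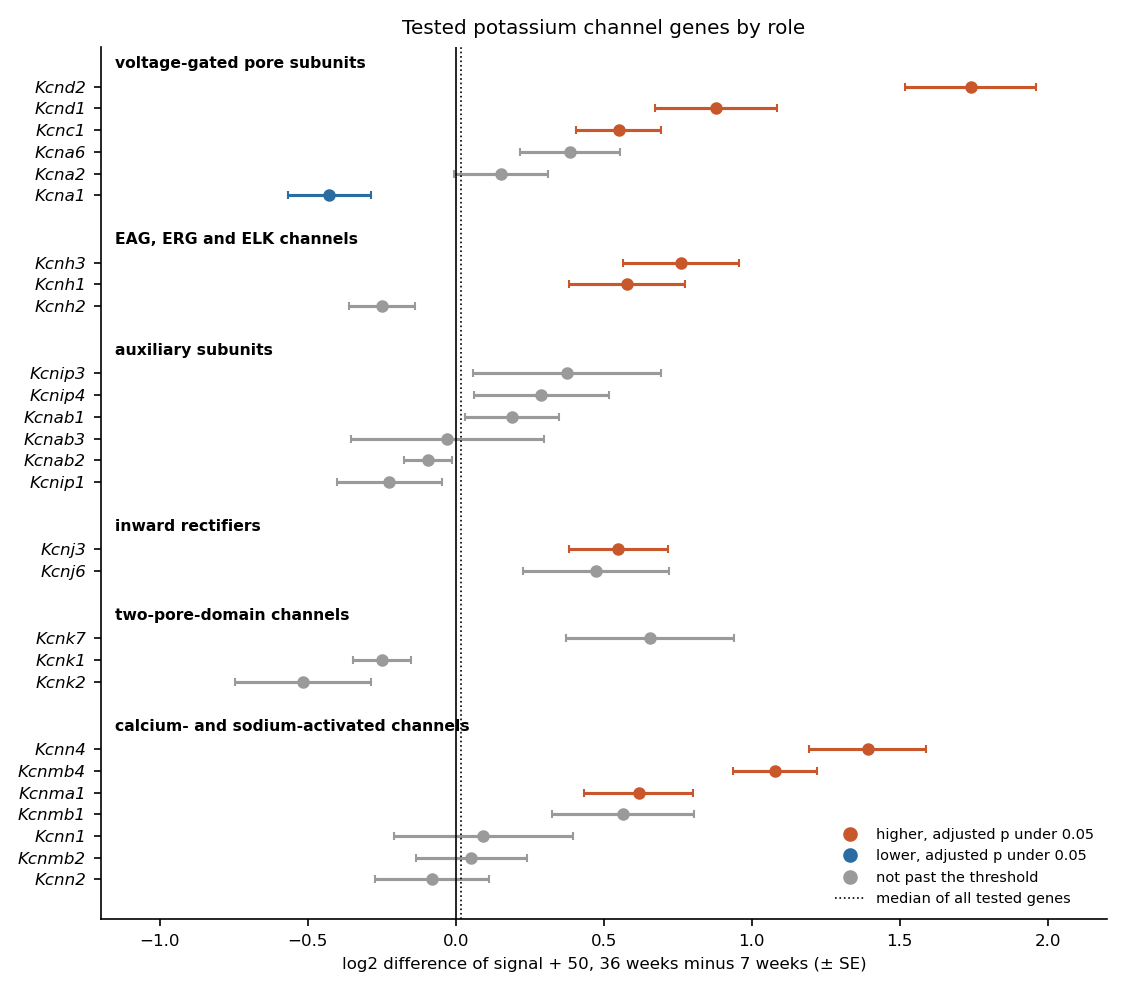
log2 difference of signal + 50, 36 weeks minus 7 weeks, ± SE, of the 27 tested potassium channel genes grouped by role. Orange points rose, the blue point fell and grey points did not pass, and the dotted line is the median of all tested genes, 0.02. The auxiliary group, which does not include the BK beta subunits, and the two-pore-domain channels have grey points only.

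Calcium-activated channels had 9 genes together with Kcnu1 of the related sperm channel, and 7 were tested, of which 3 rose and none fell. Large-conductance BK channels join voltage and calcium gating and carry the fast potassium current of inner hair cells. Kcnma1, the BK pore, had signals of 1055.4, 1197.1 and 1300.3 at 7 weeks and 2077.4, 1375.6 and 2165.9 at 36 weeks. Replicate 2 of 36 weeks stayed close to the young arrays, although the ages did not overlap. Kcnma1 rose by 0.62 ± 0.18 (adjusted p 0.0257). Without replicate 1 or 2 of 7 weeks, or replicate 1 or 3 of 36 weeks, the adjusted p was 0.0598 to 0.0949. Its dimmer probe set had mean signals of 280.4 ± 146.7 (SD, n = 3) and 235.6 ± 45.3, and the mean of both probe sets gave 0.24 with an adjusted p of 0.435.

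The beta subunits of BK tune its calcium sensitivity and gating, with Kcnmb4 known as the neuronal form and Kcnmb1 as the form of smooth muscle. Kcnmb4 had 912, 1216.9 and 1063.4 at 7 weeks and 2345.9, 2306.2 and 2206.1 at 36 weeks. The 36-week arrays lay in a narrow band, and Kcnmb4 rose 2.15-fold, by 1.08 ± 0.14 (adjusted p 0.00021). Kcnmb1 did not pass at 0.56 ± 0.24 (adjusted p 0.0952), although every old array (1067.2, 1157.1 and 1116.7) was above every young one (774.4, 506.2 and 1012.9). It passed without replicate 3 of 7 weeks, at 0.78 with an adjusted p of 0.0339. The smooth muscle and pericyte markers moved the other way on the same arrays, with 5 of 6 tested falling (of 9 measured, median -0.63, sums of 28916 to 32483 and 18481 to 20086). The part of these markers in the Kcnmb1 signal was not tested. Kcnmb2, the inactivating beta subunit, differed by 0.05 ± 0.19. Lrrc26, a gamma subunit that lets BK open at rest in secretory epithelium, rose by 1.55 ± 0.24 (adjusted p 0.00061), from a mean of 706.0 ± 116.6 (SD, n = 3) to 2231 ± 741.1.

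Small- and intermediate-conductance channels are opened by calcium alone through bound calmodulin. Kcnn4 encodes the intermediate form, known in blood cells and secretory epithelia. It had signals of 735.1, 1234.8 and 865.8 at 7 weeks and 2133.4, 2464.8 and 2985.3 at 36 weeks. All 36-week arrays lay well above the 7-week range, and Kcnn4 rose 2.67-fold, by 1.39 ± 0.20 (adjusted p 0.000366). Its dimmer probe set, under the filter, had means of 135.1 ± 111.5 (SD, n = 3) and 501.8 ± 194.4. The granulocyte and airway mucosa lists, with medians of 3.84 and 4.35, rose on the same arrays. Their part in the Kcnn4 signal was not tested. Of 5 tested lymphocyte genes (of 11 measured) none passed (median 0.33, sums of 13622 to 17538 and 17825 to 20609). Thy1 had the largest signals in these sums, with means of 9469 and 11179. Among the untested ones, Cd3d had means of 78.3 and 617.2 and passed as higher without a filter (adjusted p 0.0047). Cd3e, Cd3g, Cd2, Cd4 and Cd8a did not pass in that fit.

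Kcnn2, the small-conductance channel that couples to the efferent receptor of outer hair cells, did not pass. Its signals were 1070.1, 954.1 and 1148.7 at 7 weeks and 1170.7, 1070.2 and 781.9 at 36 weeks. The difference was -0.08 ± 0.19 (adjusted p 0.777), and its sign turned (0.082) without replicate 3 of 36 weeks. Kcnn1 differed by 0.09 ± 0.30 and did not pass, and Kcnn3 was under the filter at a mean of 141.0. Kcnu1 was also under it, at 307.4.

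**Figure D3:**
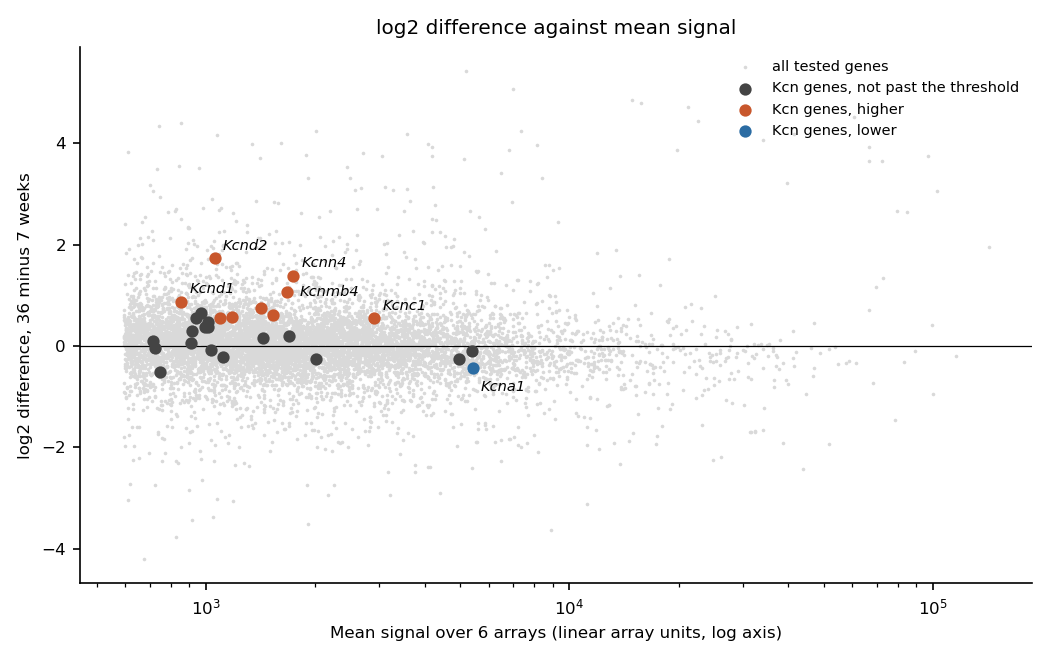
log2 difference, 36 weeks minus 7 weeks, against the mean signal over 6 arrays (log axis) for all 8555 tested genes (pale grey) and the 27 tested potassium channel genes (coloured). The potassium channel genes that rose sit mostly at moderate signal, and Kcna1, which fell, has a mean signal of 5410.

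Inward rectifiers pass potassium more easily into the cell than out, and they had the most members under the filter, 10 of 12. Kcnj3 and Kcnj6 encode GIRK1 and GIRK2, which open when G protein-coupled receptors are active. Kcnj3 had 798.7, 874.3 and 949.6 at 7 weeks and 1492.7, 1194.5 and 1229.9 at 36 weeks. The ages were separate, and Kcnj3 rose by 0.55 ± 0.17 (adjusted p 0.0281). Leaving out replicate 1 or 3 of 36 weeks or replicate 1 or 2 of 7 weeks gave adjusted p-values of 0.052 to 0.108. Centring, quantile normalization and no filter gave 0.0599, 0.0514 and 0.0537. Kcnj6 did not pass at 0.47 ± 0.25 (adjusted p 0.168).

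Kcnj9 encodes GIRK3, the partner of Kcnj3 and Kcnj6 in the brain, and its mean of 539.9 was just under the filter. It had 187.5, 246.9 and 84.9 at 7 weeks and 1144.7, 838.3 and 737.2 at 36 weeks. The ages were far apart, and in a fit of all probe sets without a filter the difference was 2.15 ± 0.38 (adjusted p 0.00385). Its other probe sets were dimmer, and their differences were -0.03 ± 0.47 and -0.35 ± 0.70. Kcnj9 lies next to Kcnj10 in the RefSeq gene order. Kcnj10, the strial channel left out of the family here, fell by 1.08 ± 0.13. Of the other strial genes, Kcne1 fell by 3.44 ± 0.36 and Kcnq1 differed by -0.92 ± 0.43 without passing (adjusted p 0.128), while Kcnj16 was not analysed here. Kcne1 had a 36-week mean of 121.7, under the filter. It was tested only through its 7-week signal, so its direction is no support, and the size of its fall depends on the offset.

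The vascular and muscle rectifiers were dim. Kcnj8, the pore of the ATP-sensitive channel of pericytes, had 874.5, 395.3 and 351.5 at 7 weeks and 502.3, 443.3 and 416.3 at 36 weeks, with overlap. Its partner Abcc9 was under the filter too, with means of 299.5 and 264.7. Kcnj12 had 203.4, 307.3 and 429.0 against 751.0, 423.4 and 512.6, also with overlap. Kcnj2, the classical inward rectifier of muscle and endothelium, had no signal above 32.8.

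Two-pore-domain channels carry the background leak current, and none of the 3 tested genes passed. Kcnk1 encodes TWIK1. Its signals were 4823.5, 5743.6 and 5650.7 at 7 weeks and 4291.0, 4719.4 and 4581.6 at 36 weeks. Every 36-week array was lower, but the difference of -0.25 ± 0.10 did not pass (adjusted p 0.0706). It passed after centring on the array median (-0.35, adjusted p 0.0237) and without replicate 1 of 7 weeks (-0.33, adjusted p 0.0316). The second probe set of Kcnk1 differed by -0.09 ± 0.12.

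Kcnk2, the mechanically sensitive TREK1, had 1094.0, 792.7 and 791.3 at 7 weeks and 676.3, 525.0 and 612.9 at 36 weeks. The ages did not overlap, and the difference of -0.52 ± 0.23 did not pass (adjusted p 0.109). Kcnk7 differed by 0.66 ± 0.28 without passing (adjusted p 0.0995), and passed without replicate 1 of 36 weeks (0.89, adjusted p 0.0411). The 5 untested genes of this group had mean signals of 69.6 to 420.0. Of these, Kcnk5 was separate by age, with 593.0, 567.1 and 588.9 at 7 weeks against 158.5, 509.5 and 103.0 at 36 weeks.

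Auxiliary subunits of voltage-gated channels (Kcnab, Kcne and Kcnip, with the BK beta subunits counted above among calcium-activated channels) were represented by 11 genes, of which 6 were tested and none passed by its brightest probe set. Kcnab2, a cytoplasmic beta subunit of Kv1 channels, had 5439.5, 5782.4 and 5483.2 at 7 weeks and 5145.2, 5146.9 and 5341.4 at 36 weeks. The ages lay close together without overlapping, and the difference was -0.09 ± 0.08 (adjusted p 0.395). A dimmer probe set of Kcnab2 behaved otherwise, with 268.6, 236.8 and 339.7 at 7 weeks and 874.6, 1300.5 and 1146.4 at 36 weeks. It rose by 1.80 ± 0.29 (adjusted p 0.000754, or 0.00173 without a filter). Its 7-week mean of 281.7 was under the filter, so it entered the test only through its 36-week signal. Kcnab2 gave the sole disagreement in call among the 6 genes with more than 1 tested probe set. The mean of both probe sets gave 0.85 with an adjusted p of 0.000568, so the call for Kcnab2 rests on which probe set is read. Kcnab1 and Kcnab3 differed by 0.19 ± 0.16 and -0.03 ± 0.33 and did not pass.

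The calcium-binding KChIP subunits, which bring Kv4 channels to the membrane, had 4 genes, and the 3 tested did not pass. Kcnip1 had 1300.2, 1068.6 and 1233.8 at 7 weeks and 870.4, 1219.7 and 990.4 at 36 weeks, with overlap, and differed by -0.22 ± 0.18. Its second tested probe set differed by -0.47 ± 0.18 without passing (adjusted p 0.0745). Kcnip3 and Kcnip4 differed by 0.38 ± 0.32 and 0.29 ± 0.23. Kcnip2 was under the filter, with 78.5, 545.9 and 534.1 at 7 weeks and 839.0, 598.5 and 507.9 at 36 weeks. Whether the subunits and the Kv4 pores differ from each other in their change was not tested.

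**Figure D4:**
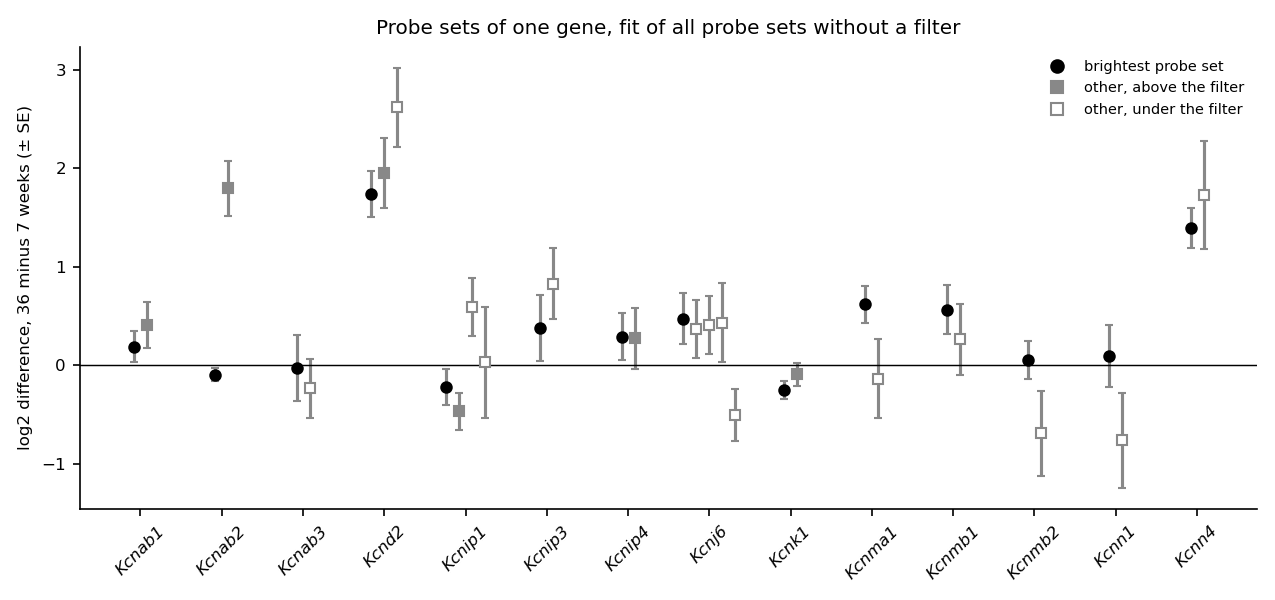
log2 difference, 36 weeks minus 7 weeks, ± SE, of each probe set of the genes with more than 1 probe set and at least 1 above the filter, from a fit of all probe sets. Circles are the brightest probe sets, grey squares others above the filter and open squares others under it. The probe sets of Kcnd2 lie together between 1.74 and 2.62, while those of Kcnab2 lie apart at -0.09 and 1.80.

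None of the 4 measured single-span Kcne subunits other than Kcne1 was bright enough to be tested. Kcne3, the partner of KCNQ channels in secretory epithelium, had 61.1, 80.2 and 163.8 at 7 weeks and 583.5, 630.7 and 634.3 at 36 weeks. In the fit without a filter its difference was 2.19 ± 0.37 (adjusted p 0.00277). Kcne1l, also called Kcne5, had 76.3, 31.6 and 106.9 against 634.7, 363.9 and 236.8, a difference of 1.88 ± 0.44 (adjusted p 0.0152) in that fit. Both were separate by age, from a 7-week signal so dim that the size depends on the offset. Kcne2 and Kcne4 overlapped between the ages, with mean signals of 243.7 and 480.4.

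Kcnq5 encodes a KCNQ channel, a family whose slow current limits repeated spikes in neurons. Kcnq5 was dim, with 243.6, 95.9 and 237.4 at 7 weeks and 28.4, 41.2 and 21.6 at 36 weeks. All 36-week arrays were lower, by -1.53 ± 0.37 in the fit without a filter (adjusted p 0.0171). The electrically silent subunits, which act only by joining Kv2 channels, were Kcns1 and Kcns2, with mean signals of 369.1 and 482.9. Kcns1 was higher on every 36-week array (523.1, 424.2 and 441.9) than on any 7-week array (165.3, 404.1 and 256.2), and Kcns2 overlapped.

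The 32 untested genes had mean signals of 24.2 to 581.2. The ages overlapped for 24 of them, while 5 (Kcnd3, Kcne1l, Kcne3, Kcnj9 and Kcns1) were higher and 3 (Kcna5, Kcnk5 and Kcnq5) lower on all 36-week arrays. The share of all genes under the filter that were separate by age was not computed. These counts therefore have no background to be set against. In the fit without a filter 3 of the 32 passed as higher and 1 as lower, against 3.15% and 2.4% of all 3838 genes under the filter. A dimmer probe set of Kcnk3 also passed there (1.25 ± 0.32, adjusted p 0.0219), whereas its brightest did not (0.69 ± 0.51).

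**Figure D5:**
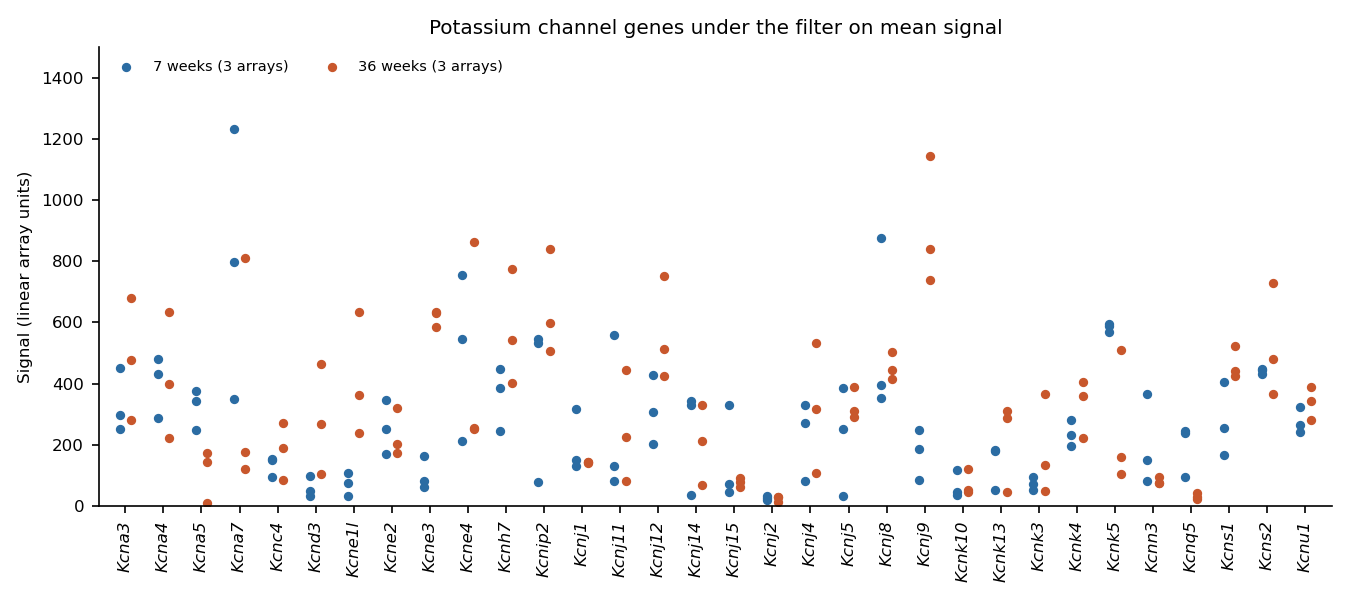
Signal on each array, in linear array units, of the 32 potassium channel genes whose mean lay under the filter at 593.6. Blue points are the 3 arrays of 7 weeks and orange points those of 36 weeks. For Kcne3 and Kcnj9 the ages lie far apart, and for 24 genes they overlap.

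Among the 27 tested genes the 36-week arrays were all higher than the 7-week arrays for 10 and all lower for 4. Over all tested genes these shares were 24.1% and 24.2%. The 10 comprise the genes that rose other than Kcnh1, together with Kcna6 and Kcnmb1. Of these, Kcnd2 and Kcnd1 passed the filter only through their 36-week signal. The 4 were Kcnab2, Kcnh2, Kcnk1 and Kcnk2, none of which passed the test. The median SD within an age, on the log2 scale, was 0.25 at 7 weeks and 0.20 at 36 weeks over the tested potassium channel genes.

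The calls followed the signal only in part. Of 15 potassium channel genes between the 40th and 60th percentile of signal 3 passed, all as higher. The 3 were Kcnj3, Kcnd1 and Kcnd2. Kcnd1 and Kcnd2 were in this range only through their 36-week signal, so their direction is no support here. Of all genes in that range 20% passed in either direction. Shares by direction within a range were not computed. Of 8 between the 60th and 80th percentile 5 passed, all higher, against 31.4% of all genes in either direction. Above the 80th percentile 2 of 4 passed, Kcnc1 as higher and Kcna1 as lower, against 50.6% of all genes in either direction. The median SE fell from 0.23 in the lowest of these ranges to 0.12 in the highest, so brighter genes were measured more precisely.

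Of 19 measured genes of proteins that bind, place or regulate potassium channels, or form the related HCN channels, 10 were tested. Of these 10, 2 rose and 2 fell (median 0.07). Over all tested genes 17.5% passed as higher and 17.6% as lower, 35.1% in either direction, so these counts are near that background. The partner genes that rose were Dpp6 and Lrrc26. Sgk1, a kinase that raises the surface level of several channels, fell from a mean of 10793 ± 889.2 (SD, n = 3) to 3599 ± 816.7, by 1.59 ± 0.14 on the log2 scale (adjusted p 1.23e-05). Ank3, the ankyrin that anchors channels at the axon initial segment, fell from 3652 ± 666.1 to 2420 ± 144.8, by 0.57 ± 0.14 (adjusted p 0.00923). The other 6, among them Hcn2 at 0.03 ± 0.15 and Dlg1 at 0.10 ± 0.11, did not pass.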

How the data were processed

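Total RNA from 6 cochlea samples was labelled with biotin and hybridised to 6 Affymetrix arrays, per the labels' protocols. Deposited were linear intensity values per probe set, and the summarising software was not given in the sources used here. Per the values, the authors' arrays share a trimmed mean of 1490 to 1493 (lowest and highest 2% left out), so signals are relative and their absolute scale is unknown. Array medians were 766.3 to 859.4, and the number of arrays and the signal of a gene limit the precision. The labels give no slide or scan batch.

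The platform annotation named the probe sets, and all 59 genes were found in the RefSeq table of GRCm38.p6, which changed 0 symbols. Of the 87 probe sets 1, of Kcnc4, has a name ending in _s_at and can bind related transcripts. Signals were transformed as log2(signal + 50). Probe sets with a mean signal above the 40th percentile were fitted in limma 3.58.1 (lmFit, then eBayes with an intensity trend) under R 4.3.3, 36 weeks against 7 weeks, unpaired and two-sided, with Benjamini-Hochberg adjustment over all 13575 of them. Results were tabulated with Python 3.11.15 and drawn with matplotlib 3.10.9. An exact permutation test of 3 against 3 arrays cannot go below 0.1 and was not used.

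Named genes were those past the threshold, the brightest of each subfamily, genes whose probe sets disagree, and set channels of hair and blood cells, of which Kcnma1, Kcnn2 and Kcnn4 are reported here. Any other gene named was picked with its values in view. The members and gene lists were chosen with earlier results of these data known. Alternatives were other offsets, scalings, filters, no trend, the replicate block, arrays left out, 9 pairs with a 1.5-fold minimum and the mean of a gene's probe sets, with a filter on mean log2 added after seeing the data.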

Additional observations from a re-analysis of the deposited data

How the results depend on the processing

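The rises of Kcnd2, Kcnd1, Kcnmb4 and Kcnn4 passed the threshold under every alternative in which they were tested, with log2 differences of 1.61 to 2.10, 0.77 to 0.95, 0.97 to 1.17 and 1.24 to 1.59. At the 60th percentile filter Kcnd1, Kcnd2 and Kcnj3 were not tested. The number of genes higher at 36 weeks was 5 to 9 with each array left out in turn and the number lower was 0 to 1. The share over all tested genes was computed only for the main analysis and for the rule of 9 pairs. Against 1 lower gene in the main analysis, the number was 3 after centring on the array median and 0 without the intensity trend, after quantile normalization and by 9 pairs with a 1.5-fold minimum, which called 6 higher (12.6% and 10.8% of all tested genes were called higher and lower by that rule). Same-numbered arrays did not deviate together (correlations of -0.010 to 0.049, and not every array correlated best with its own number). The samples were therefore treated as unpaired, although 3 arrays per age cannot exclude that they were matched by number. The replicate block gave 9 higher and 1 lower, with Kcnk7 (adjusted p 0.0421) in place of Kcnj3 (adjusted p 0.053), and it changed no other call among the potassium channel genes. The filter on mean log2 called the same 9 and 1 genes. The median over the tested potassium channel genes stayed positive, between 0.26 and 0.45. Kcnd2 and Kcnd1 were among these genes in every fit but that with the 60th percentile filter, where the median was 0.37. Centring moved the median of all tested probe sets from 0.02 to -0.08. Signs turned for Kcnab2 with the mean of its probe sets (0.85) and, with a difference that did not pass, for Kcnn2 without replicate 3 of 36 weeks (0.082), where leaving out single arrays gave a range of -0.19 to 0.082. The cause of these changes was not tested, except that fewer arrays or probe sets enter some fits. Under about the array medians, the size of a difference depends on the offset and the floor of the signal.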
